A study of Mus musculus with 6 samples.

Results

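The genes described here encode the inflammasome and the proteins that act directly after it, namely the sensors *Nlrp3*, *Nlrc4*, *Nlrp1b*, *Aim2*, *Mefv* and *Naip2*, the adaptor *Pycard*, the caspases *Casp1* and *Casp4*, and the pore-forming gasdermin *Gsdmd*. These 10 genes were taken by symbol from the 46078 genes of the count files. Transcript levels were measured by bulk RNA-Seq in 3 stroke infarcts and 3 contralateral cortices of wild type C57BL/6J mice, aged 3 months in the labels and male per the study's methods. Stroke was made by closing the distal middle cerebral artery and then holding the mice in hypoxia, and tissue was collected at 7 weeks after saline perfusion. The contralateral cortex is the matching area of the other hemisphere of mice that also had surgery, stroke and hypoxia, so it is not tissue of unoperated animals, and the labels name no treatment. Libraries are numbered 1 to 3 in each region without a statement of which ones share a mouse or that each came from another mouse, so the p values measure the spread between these samples.

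Counts on genes totaled 12146959 to 13427057 in infarcts and 11943570 to 19933962 in the contralateral ones. The tissue labels matched their markers. All 5 neuronal markers were lower in infarcts, whereas the 11 phagocyte markers, genes shared by microglia and macrophages, were all higher, with a summed level of 2471 to 3163 CPM (counts scaled to library size) against 257 to 355. The 6 monocyte and macrophage markers were also all higher, at a summed 5034 to 8488 CPM against 38.2 to 48.7 CPM. Most of the infarct sum was *Lyz2*, with 7853, 6830 and 4665 CPM in infarcts 1, 2 and 3. Among 6 markers of resting microglia, 2 were called higher. Lymphocyte markers varied between infarcts and were highest in infarct 1, with 126 CPM over 5 T cell genes in infarct 1 against 31.3 and 41.4 CPM. In bulk tissue, fewer cells of a type and less RNA per cell cannot be told apart.

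An inflammasome is a protein platform that forms in the cytosol when a sensor meets a microbial product or a sign of cell damage. Most sensors recruit the adaptor ASC, the product of *Pycard*, which gathers pro-caspase-1 so that it cleaves itself. Active caspase-1 matures the cytokines interleukin-1β and interleukin-18 and cuts gasdermin D, whose freed part opens pores in the plasma membrane and can end in lytic cell death, called pyroptosis. Caspase-11, encoded in the mouse by *Casp4*, binds bacterial lipopolysaccharide directly and cuts gasdermin D without a sensor of the canonical pathway. In the brain, several of these genes are known from microglia and from macrophages that enter after injury. Transcript counts hold no information on whether a protein was cleaved or a platform assembled.

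All 10 genes were transcribed at a higher level in the infarct than in the contralateral cortex, and in none of them did the lowest infarct library fall to the highest contralateral library. Each was called by the edgeR quasi-likelihood test, with an adjusted p under 0.05 and a change beyond 2-fold, and none was lower. Over the 15554 genes tested, 25.7% were called higher and 20.9% lower, and 37.6% had infarct libraries that all lay above the contralateral ones. The median log2 fold change of the 10 genes was 4.35, against 0.03 over all tested genes. *Nlrc4* and *Mefv* had at most 3 counts in each contralateral library. With both set to the lower end of their counting interval, the median was again 4.35. This step could not move it, because these lower ends, 26.0-fold and 40.0-fold, still lay above the median. By fold change, the 8 genes other than *Nlrc4* and *Mefv* ranked above 91.9% (*Casp1*) to 97.6% (*Casp4*) of tested genes. In 6 of the 10 genes at least 1 contralateral library held fewer than 10 counts, so that they entered the test through their infarct counts. These were *Nlrp3*, *Nlrc4*, *Nlrp1b*, *Casp4*, *Gsdmd* and *Mefv*. *Pycard*, with 12 counts in contralateral library 2, was also under the CPM limit of the filter in that library. The summed level of the 10 genes was 167 to 229 CPM in infarcts and 7.29 to 11.1 CPM in the contralateral ones.

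**Figure D1:**
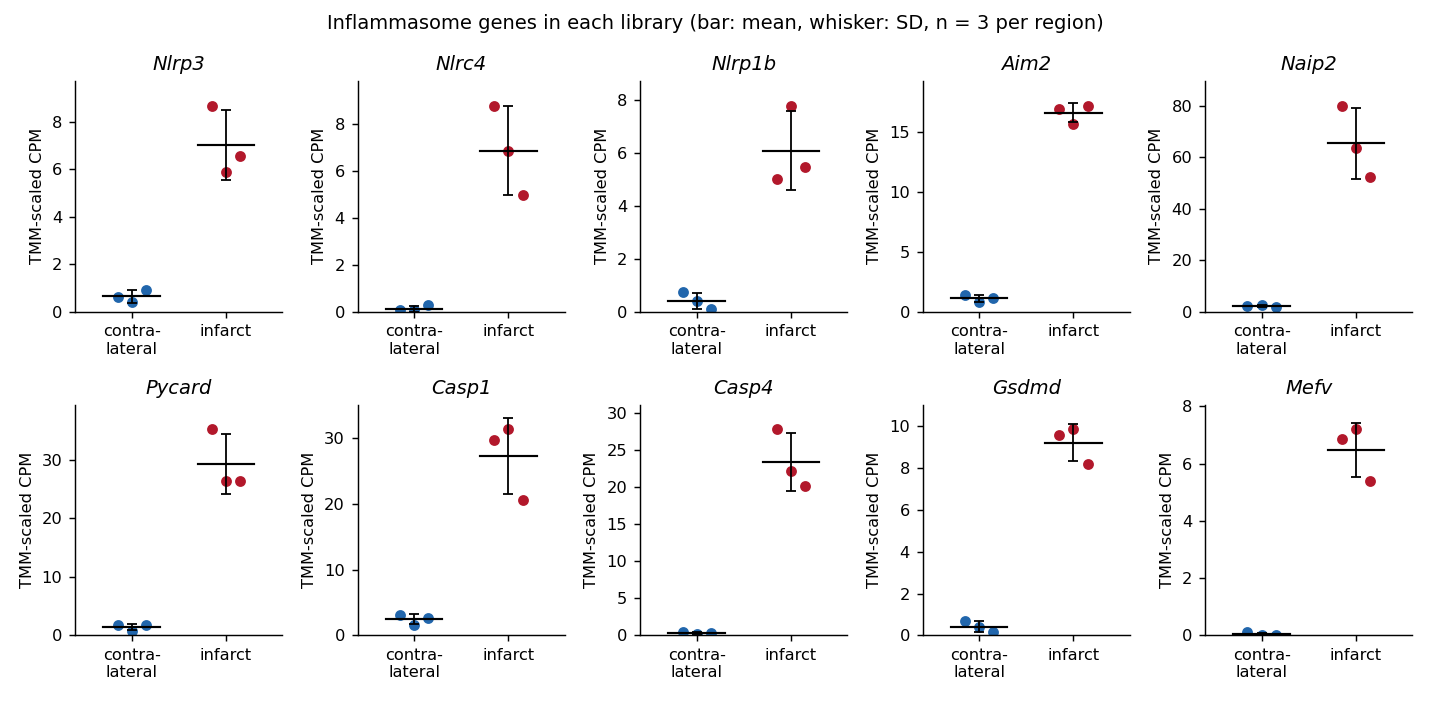
Level of each of the 10 inflammasome genes in each library, in TMM-scaled CPM on a linear axis from 0. Points are libraries, blue for contralateral cortex and red for infarct, bars are means and whiskers are SDs (n = 3 per region). In every panel the 3 infarct points lie above the 3 contralateral points.

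The promoters of *Casp1*, *Casp4* and *Pycard* are shown because *Casp1* and *Casp4* lie next to each other on one strand and differed in fold change, and because *Pycard* encodes the adaptor. Each line gives the 250 bases before the RefSeq start site on GRCm38.p6, read 5′ to 3′ on the strand of the gene. They lie at chr9:5298267-5298516 (plus strand, *Casp1*), chr9:5308599-5308848 (plus strand, the first of the RefSeq starts listed for *Casp4*) and chr7:127993868-127994117 (minus strand, *Pycard*). Capitals mark matches, on either strand, to the motifs named after the sequences.
Casp1: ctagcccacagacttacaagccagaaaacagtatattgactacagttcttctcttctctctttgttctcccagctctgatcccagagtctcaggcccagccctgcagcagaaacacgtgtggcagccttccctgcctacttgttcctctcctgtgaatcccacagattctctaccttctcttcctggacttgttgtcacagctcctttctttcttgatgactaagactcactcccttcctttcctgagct
Casp4: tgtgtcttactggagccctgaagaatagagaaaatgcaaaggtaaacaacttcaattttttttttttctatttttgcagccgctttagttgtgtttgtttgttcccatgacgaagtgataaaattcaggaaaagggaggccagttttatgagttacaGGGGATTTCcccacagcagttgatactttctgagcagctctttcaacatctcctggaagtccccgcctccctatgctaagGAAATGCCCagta
Pycard: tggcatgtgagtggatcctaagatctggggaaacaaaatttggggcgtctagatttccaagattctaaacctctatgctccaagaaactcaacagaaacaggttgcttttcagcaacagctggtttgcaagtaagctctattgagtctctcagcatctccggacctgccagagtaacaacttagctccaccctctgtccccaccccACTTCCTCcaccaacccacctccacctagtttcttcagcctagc
Short motifs were searched on both strands of windows running from 250 bases before to 50 bases after the start. RefSeq promoters matched 9 of the 10 genes, and *Gsdmd* had no entry. *Nlrp3*, *Nlrp1b* and *Casp4* had 2 promoters each. A gene was counted if any of its promoters matched, whereas the shares over all promoters count single promoters. The PU.1 motif GAGGAAGT, named for a factor of myeloid cells, was present in *Nlrp1b*, *Aim2* and *Pycard*, and in 3.2% of 32851 promoters of this length. In *Pycard* the match began 44 bases before the start. The first 9 letters of an NF-kB motif, GGGNNTTTC, were found in *Aim2*, *Naip2* and *Casp4*, and in 4.36% of all promoters. *Casp4* held it at 93 bases and, on the other strand, at 13 bases before the start, and the match was also inside the window of the other *Casp4* start. The interferon response core GAAANNGAA occurred in *Naip2* and in 8.56% of promoters, whereas the GAS motif TTCNNNGAA (8.30% of promoters) and the AP-1 motif TGANTCA (7.81%) matched none of the 9 genes. No match to any of these letters was present in the *Casp1* window. These are descriptions of letters in a window and say nothing of binding.

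*Nlrp3* encodes the sensor of potassium efflux, crystals and other signs of membrane damage, and lies on chromosome 11 at 59541568 to 59566956 (GRCm38). Its level was 8.68, 5.87 and 6.55 CPM in infarcts 1, 2 and 3, and 0.63, 0.39 and 0.92 CPM in contralateral cortices 1, 2 and 3. The regions did not overlap, and infarct 1 was the highest. The log2 fold change was 3.47 with a standard error of 0.37 (edgeR adjusted *p* = 2.6e-05), an 11.1-fold difference.

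*Nlrc4* forms the platform used by NAIP proteins, which themselves bind flagellin and parts of bacterial secretion systems. It was counted 110, 93 and 73 times in the infarct libraries, or 8.76, 6.83 and 4.98 CPM, and 1, 1 and 3 times in the contralateral ones. Contralateral transcripts of *Nlrc4* were thus at the limit of what this depth can count. The ratio of summed scaled levels was 61.3, with a 95% counting interval of 26.0 to 190, which covers counting error only (edgeR adjusted *p* = 9.6e-06). Without contralateral library 3, which held 3 of the 5 contralateral counts, the fitted log2 fold change moved from 5.82 to 6.69.

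*Naip2* binds the inner rod protein of bacterial secretion systems, and lies with its paralogs *Naip1*, *Naip5* and *Naip6* on chromosome 13, at 100144063 to 100202092. Its level was 80.1, 63.9 and 52.4 CPM in infarcts and 2.14, 2.60 and 1.94 CPM in the contralateral ones. The log2 fold change was 4.86 with a standard error of 0.24 (edgeR adjusted *p* = 2.7e-07). The infarct libraries were lowest in infarct 3, whose level was still far above that of any contralateral library. Of all 75-base windows of *Naip2* transcripts, 10.9% occurred in another gene as well, most often *Naip1*, so the split of reads among these paralogs is uncertain. Within the counts assigned to *Naip1*, *Naip2*, *Naip5* and *Naip6*, *Naip2* took 64.3%, 55.3% and 54.3% in infarcts and 35.0%, 49.4% and 43.8% in contralateral cortices. These shares did not overlap, and they carry the same uncertainty.

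*Aim2*, the sensor of cytosolic double-stranded DNA, varied least among infarcts, with a coefficient of variation of 4.80%. Its level was 17, 15.7 and 17.2 CPM in infarcts and 1.41, 0.85 and 1.11 CPM in contralateral cortices. The difference was 14.6-fold (log2 fold change 3.86, standard error 0.25, edgeR adjusted *p* = 1.1e-06).

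*Nlrp1b*, which senses proteases and is held inactive by DPP8 and DPP9, had 5.02, 7.78 and 5.46 CPM in infarcts and 0.73, 0.39 and 0.092 CPM in contralateral cortices. Its contralateral counts were 14, 6 and 1, a spread in which the lowest library rested on 1 count. The log2 fold change was 3.75 with a standard error of 0.48 (edgeR adjusted *p* = 9.5e-05), and this was the largest adjusted p of the 10 genes. Without contralateral library 1 the log2 fold change was 4.48. Only 0.66% of its 75-base windows were shared, all with *Nlrp1a*.

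*Mefv* encodes pyrin, which responds to the action of certain bacterial toxins. It was counted 86, 98 and 79 times in infarcts (6.85, 7.2 and 5.39 CPM), and only in contralateral library 1, with 2 counts, was it found in the other hemisphere. The ratio of summed scaled levels was 146, with a counting interval of 40.0 to 1212 (edgeR adjusted *p* = 5.9e-06). Because 1 library held both contralateral counts, the fitted log2 fold change ranged from 6.44 without contralateral library 2 to 9.44 without contralateral library 1, where no count was left, and is not read as a size.

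*Pycard*, the adaptor on chromosome 7 at 127989708 to 127993867, had 35.2, 26.4 and 26.4 CPM in infarcts. Contralateral libraries had 1.72, 0.78 and 1.75 CPM. The 2 regions lay far apart, with a log2 fold change of 4.37 and a standard error of 0.30 (edgeR adjusted *p* = 1.6e-06). Of the exon bases of *Pycard*, 12.8% overlap exons of the unclassified gene *Gm45205* on the other strand. The strand setting of the counting is not given in the sources used here. The same limit holds for genes named further below, with other-strand overlaps of 19.4% in *Txnip*, 11.9% in *Nlrx1*, 11.3% in *Myd88* and 11.2% in *Il1a*.

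*Casp1* and *Casp4* lie next to each other on the plus strand of chromosome 9, at 5298517 to 5307265 and at 5308828 to 5336783, followed by *Casp12*. *Casp1*, the caspase that matures interleukin-1β, had 29.7, 31.3 and 20.6 CPM in infarcts and 3.13, 1.63 and 2.58 CPM in contralateral cortices. Its fold change was 11-fold, within the error of that of *Nlrp3* (log2 fold change 3.46, standard error 0.28, edgeR adjusted *p* = 4.8e-06).

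*Casp4*, the lipopolysaccharide receptor of the noncanonical pathway, had 27.8, 22.2 and 20.2 CPM in infarcts. In contralateral cortices it had 0.47, 0.20 and 0.37 CPM, from 9, 3 and 4 counts. The log2 fold change was 6.02 with a standard error of 0.31 (edgeR adjusted *p* = 3.8e-07), or 65.1-fold. *Casp4* had 0.94, 0.71 and 0.98 counts for each count of *Casp1* in infarcts, but 0.15, 0.12 and 0.14 in contralateral cortices. The ratios did not overlap between regions (2-sided exact permutation *p* = 0.1, the smallest that 3 against 3 libraries allow, and 0.1 after adjustment over the 3 gene pairs compared). The pairs, of which the others follow with the cytokines and gasdermins, were chosen after their values were seen. Their p values therefore add nothing to the fold changes of the single genes.

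*Gsdmd*, the pore-forming substrate on chromosome 15 at 75862327 to 75867408, had 9.56, 9.84 and 8.19 CPM in infarcts and 0.68, 0.39 and 0.18 CPM in contralateral cortices. The infarct libraries were close to each other, with a coefficient of variation of 9.60%, whereas contralateral counts were 13, 6 and 2. The log2 fold change was 4.33 with a standard error of 0.37 (edgeR adjusted *p* = 6.6e-06), a 20.1-fold difference.

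Scaled per kilobase of exon, the order of the genes differed between the hemispheres in its lower places. The length used was that of all annotated exons of a gene merged. For *Casp4* this was 3710 bases, while its longest transcript has 1901 bases. The places of genes within a region depend on this length, and no other length was tried. In infarcts, the mean level per kilobase was highest for *Casp1*, at 18.2, and *Naip2*, at 13.5, and the libraries of these genes overlapped. *Pycard*, at 7.72, and *Casp4*, at 6.31, followed and also overlapped, above *Aim2*, at 4.75, and *Gsdmd*, at 3.87, which each stood apart from their neighbors. *Mefv* (1.99), *Nlrp3* (1.73), *Nlrc4* (1.43) and *Nlrp1b* (0.97) came last, each overlapping the next. In contralateral cortices *Casp1* was again first, at 1.64, with libraries all above those of *Naip2*, at 0.46. From *Naip2* down, every gene overlapped its neighbor in the order *Pycard* (0.37), *Aim2* (0.32), *Gsdmd* (0.18), *Nlrp3* (0.16), *Casp4* (0.093), *Nlrp1b* (0.064), *Nlrc4* (0.027) and *Mefv* (0.011). *Casp4* thus held place 4 in infarcts and place 7 in contralateral cortices, and *Mefv* places 7 and 10.

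**Figure D2:**
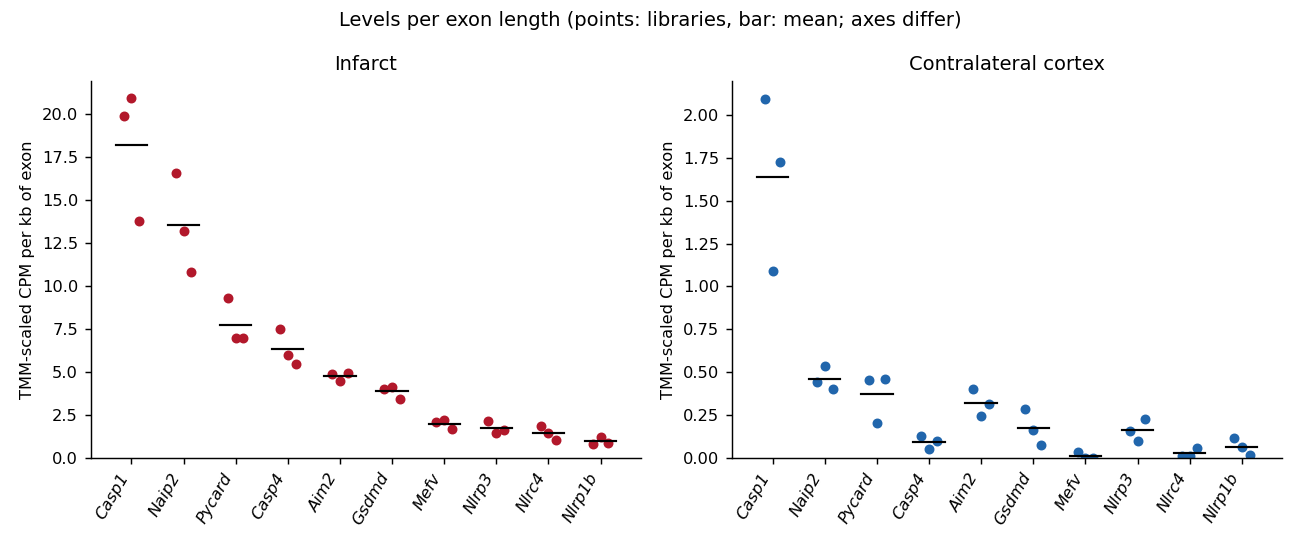
Level per kilobase of exon for the 10 genes, in infarcts (left, red) and contralateral cortices (right, blue). The level is TMM-scaled CPM divided by the merged length of all annotated exons, on which the order of genes depends. Points are libraries and bars are means over 3 libraries; genes stand in the infarct order in both panels, and the axes differ about 10-fold in range. Casp1 is highest in both regions, and Casp4 stands relatively lower in contralateral cortex.

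The genes also varied differently among the 3 infarcts. *Nlrp3*, *Nlrc4*, *Naip2*, *Pycard* and *Casp4* were highest in infarct 1. That library also had the highest summed lymphocyte, phagocyte (3163 CPM) and monocyte and macrophage markers (8488 CPM, mostly *Lyz2*). Of the monocyte and macrophage markers, only *Arg1* was not highest there, at 0.88 CPM against 8.59 and 6.62 CPM in infarcts 2 and 3. *Nlrp1b*, *Casp1*, *Gsdmd* and *Mefv* were highest in infarct 2, and *Aim2* in infarct 3. Without infarct 1, all 10 genes were called higher again. The part of these cell types in the levels was not tested. Neutrophils also use these genes. Their 10 marker genes had a summed level of 14.1 to 20.9 CPM in infarcts and 0.10 to 1.29 CPM in contralateral cortices. *Elane* was at 0 in every library, *Ly6g*, *Retnlg* and *Mpo* were at 0 in contralateral cortices, and 5 of the 10 markers passed the filter and were called higher. Their part in the levels was not tested.

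Because all 11 phagocyte markers were higher in infarcts, the level of each gene was also set against the mean log2 CPM of the 11 phagocyte markers in the same library, a mean that was 3.83 higher in infarcts. Relative to it, 5 genes were higher in infarcts without overlap, 1 was lower without overlap, and 4 overlapped. Over the 15554 tested genes, 3.33% were higher and 91.4% lower without overlap on this scale, which a rise of the markers themselves shifts downward. *Casp4* stood at -2.81, -2.77 and -2.94 in infarcts and -4.32, -4.93 and -4.67 in contralateral cortices, a difference of 1.80. Differences were 1.46 for *Mefv*, 0.95 for *Naip2*, 0.92 for *Nlrc4* and 0.47 for *Pycard*. In *Mefv* and *Nlrc4*, these differences rest on contralateral counts of 3 or fewer and on the prior count of 2 added before the logarithm. With a prior count of 0.5 they were 3.00 and 1.72, and that of *Casp4*, from contralateral counts of 9, 3 and 4, was 2.14. These 3 genes had entered the test through their infarct counts. *Nlrc4* was without overlap by a narrow margin, at -4.93 in infarct 3 and -4.96 in contralateral library 3, which held 3 counts. The difference of *Pycard* was 0.23 without contralateral library 2, still without overlap. *Nlrp3* went the other way, from -3.99, -4.26 and -3.61 in contralateral cortices to -4.47, -4.67 and -4.55 in infarcts, a difference of -0.61. With a prior count of 0.5 the regions overlapped in *Nlrp3* (difference -0.43, exact permutation *p* = 0.2), so its lower place depends on this setting. At the prior count of 2, for each of these 6 genes the 2-sided exact permutation p was 0.1, the smallest possible, and 0.167 after Benjamini-Hochberg adjustment over the 10 genes, so that no call could be made.

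*Gsdmd* (difference 0.33, exact permutation *p* = 0.8), *Aim2* (-0.08, *p* = 0.7), *Nlrp1b* (-0.15, *p* = 0.9) and *Casp1* (-0.41, *p* = 0.2) overlapped between the regions on this scale. Some of these values changed when a library was left out. *Gsdmd* was at 0.63 without contralateral library 1 and -0.09 without contralateral library 3, and *Nlrp1b* at 0.26 and, without overlap, -0.74. *Aim2* ran from -0.15 to 0.05 without single libraries. *Casp1* was at -0.56 without contralateral library 2 and -0.59 without infarct 2, in both cases without overlap. The result depends on the markers used. Against the 6 markers of resting microglia, whose mean was only 0.90 higher in infarcts, differences ran from 2.33 (*Nlrp3*) to 4.73 (*Casp4*). The share of all tested genes was not computed on this scale or the next. Against the 6 monocyte and macrophage markers, differences ran from -2.23 (*Nlrp3*) to 0.17 (*Casp4*). *Casp4* was the only gene above 0, but its regions overlapped (exact permutation *p* = 0.5). Those of *Nlrc4* (exact permutation *p* = 0.2) and *Mefv* (*p* = 0.6) overlapped as well, and the other genes were lower without overlap. At the prior count of 2, *Casp4* had the largest and *Nlrp3* the smallest value on all 3 scales, as it must, since a marker list shifts all genes of a library alike.

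**Figure D3:**
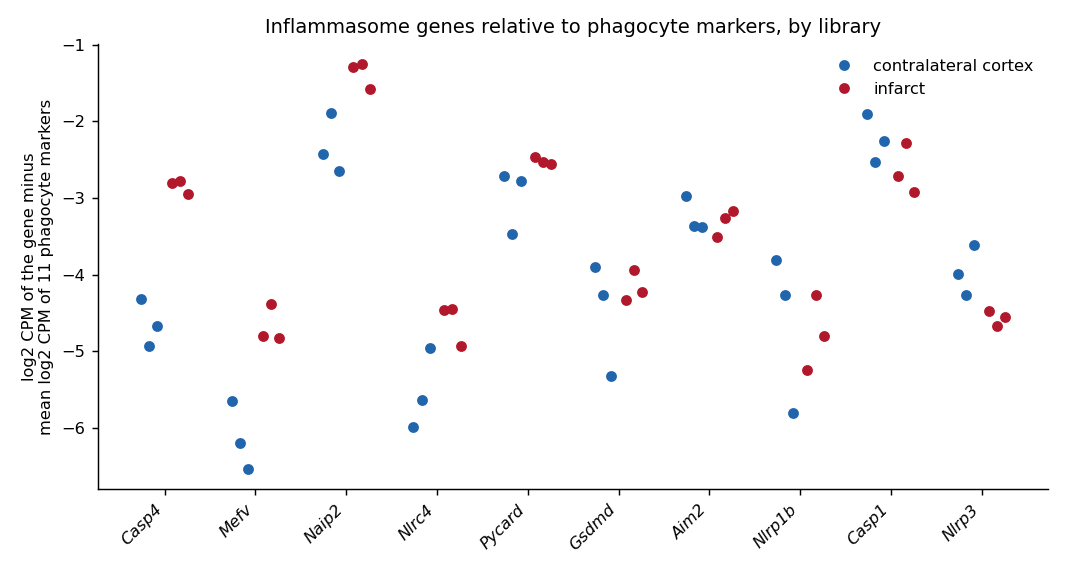
Log2 CPM of each gene minus the mean log2 CPM of 11 phagocyte markers in the same library, for contralateral cortex (blue) and infarct (red), 3 libraries each. Genes are ordered by the difference between regions, from 1.80 for Casp4 to -0.61 for Nlrp3; the points of Gsdmd, Aim2, Nlrp1b and Casp1 overlap between regions.

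Around the 10 genes, 53 further genes of the pathway were listed by role. Of these, 44 passed the filter on low counts. Among the 44, 35 were called higher, 0 were called lower and 9 were not called, against the 25.7% and 20.9% over all tested genes. Some of the 44, such as *Ifi204* and *Il1rn*, had contralateral libraries under 10 counts and entered the test through their infarct counts. With at least 10 counts in every library, 33 of the listed genes were tested and 25 were called higher, against 2789 of 12934 genes. The 0 genes called lower by edgeR compare with 3 at an adjusted p under 0.05 alone and with 1 by DESeq2 and by limma voom. The median log2 fold change of the 44 genes was 2.85, or 2.68 with the 2 genes that had at most 3 counts in every contralateral library set to the lower end of their interval.

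Among the other sensors, 9 of 11 tested genes rose. *Ifi204*, a DNA sensor of the same family as *Aim2*, went from 0.52, 0.39 and 0.18 CPM to 65.9, 44.8 and 51.1 CPM (log2 fold change 7.08, standard error 0.31), though 20.7% of its 75-base windows occur in other genes. *Naip6* rose with a log2 fold change of 4.28, *Naip5* of 3.66 and *Naip1* of 3.81, the last from contralateral counts of 2, 1 and 3 and at 4.4 without contralateral library 3. *Nlrp1a* (4.45), *Nlrp10* (3.63), *Nod1* (3.08), *Nod2* (2.62) and *Nlrx1* (1.31) rose as well, and without contralateral library 3 *Nlrp1a* was at 5.80. *Nlrp6*, best known from gut epithelium, had the opposite sign, with counts of 0, 7 and 11 in infarcts and 21, 23 and 21 in contralateral cortices, and missed the call (log2 fold change -1.76, edgeR adjusted *p* = 0.05). It was called lower without infarct 3 (-2.44), and by DESeq2 (-1.82). *Dhx33*, an RNA helicase, was not called (-0.27). *Nlrp12* had 5, 13 and 6 counts in infarcts and 0 in every contralateral library, which is at least 2.80-fold higher when the contralateral libraries are each set to 3 counts, and it was too low to be tested.

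Of 14 upstream genes and regulators, 10 rose. Genes of lipopolysaccharide and priming signals included *Tlr4*, the lipopolysaccharide receptor, with a log2 fold change of 4.27, and its adaptor *Myd88*, at 3.21. The interferon-inducible GTPases that open bacterial membranes for caspase-11 and AIM2 rose with values of 5.50 (*Irgb10*, counted under *Gm12250*, an entry that the annotation classes as a processed pseudogene), 4.98 (*Gbp2*) and 3.63 (*Gbp5*). *Irgb10* was at 6.85 without contralateral library 3 and 4.90 without contralateral library 2. *Trim30a*, a restraint on NLRP3, stood at 4.71, *Txnip*, a redox partner of NLRP3, at 3.57, and *Pstpip1*, a partner of pyrin, at 3.55. *P2rx7*, the ATP-gated channel that causes potassium efflux, had a log2 fold change of 2.51, and *Nek7*, a kinase that NLRP3 needs, one of 1.14. *Dpp8* and *Dpp9*, which hold NLRP1 inactive, had values of -0.90 and -0.62, and *Brcc3*, a deubiquitinase of NLRP3, had -0.50. These 3 genes passed the adjusted p (edgeR, 4.6e-04, 0.0078 and 0.012) but not the 2-fold limit. The pannexin channel *Panx1* had a value of 0.49 and was not called.

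**Figure D4:**
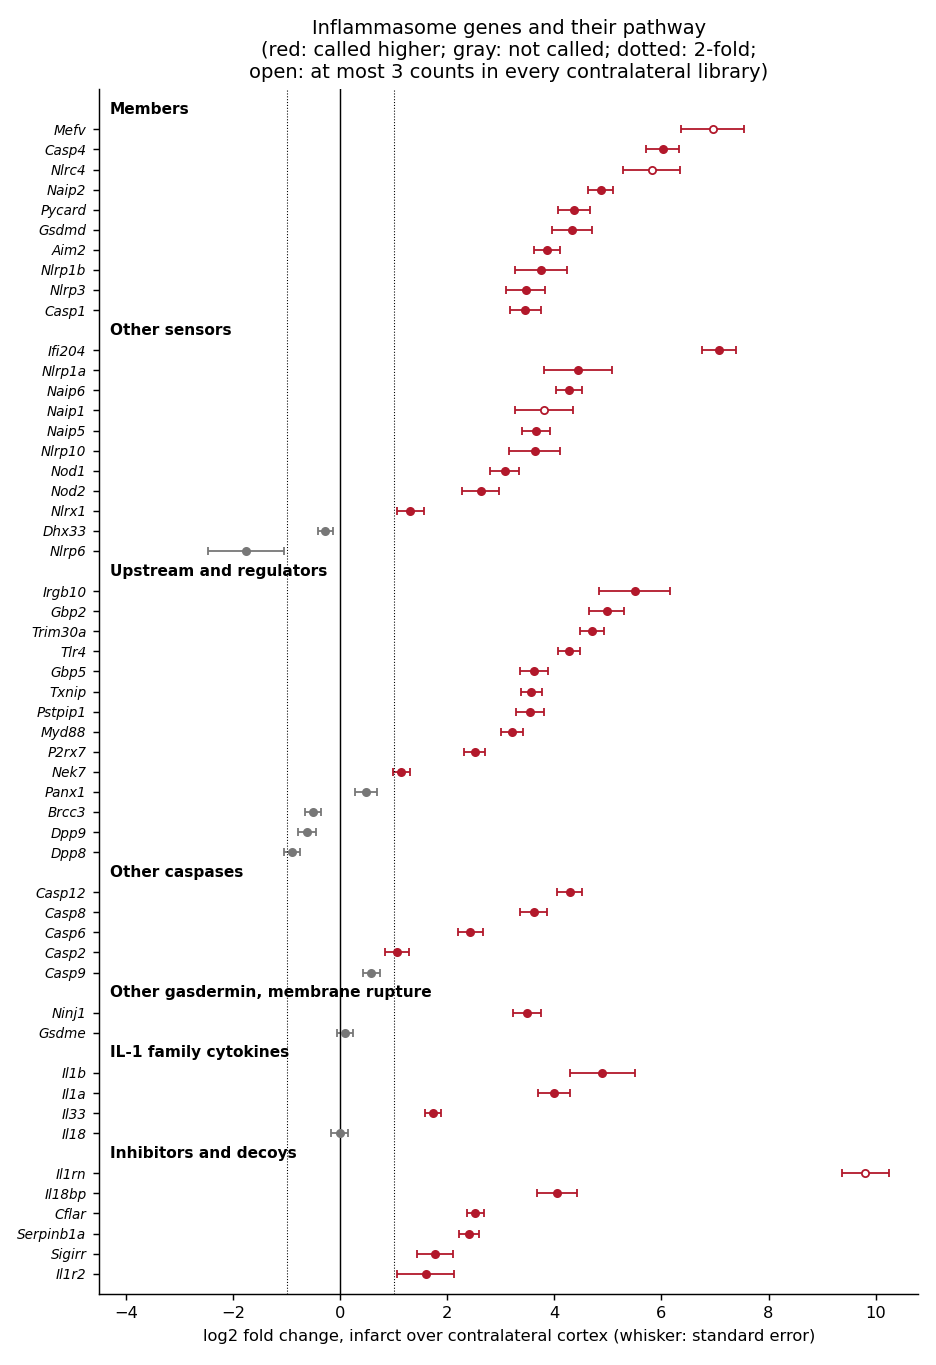
Log2 fold change of infarct over contralateral cortex with its standard error (edgeR) for the 10 inflammasome genes and tested genes around them, grouped by role. Red marks genes called higher, gray genes not called, open points genes with at most 3 counts in each contralateral library, and dotted lines 2-fold; Il18 and Gsdme lie close to 0 while all 10 inflammasome genes lie beyond 3.

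Other caspases rose in 6 of 7 tested genes. *Casp12*, next to *Casp4* on chromosome 9, had the largest value (log2 fold change 4.28, standard error 0.24), with 74.1, 78.3 and 55.8 CPM against 4.34, 3.58 and 2.58 CPM. The apical *Casp8*, which links cell death receptors to inflammasomes, had a value of 3.62, and *Casp6*, an executioner caspase, had 2.43. *Casp2* rose by 1.06, a call that was lost without infarct 1 (0.98) or contralateral library 3 (0.91), and *Casp9*, the caspase of the mitochondrial pathway, did not pass the fold limit (0.58). *Casp14* was at 0 in every library.

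In contrast to *Gsdmd*, *Gsdme*, another pore-forming gasdermin, did not differ detectably between the regions. It had 46.7, 56.2 and 48.7 CPM in infarcts and 52.8, 46.8 and 43.0 CPM in the contralateral ones, and the log2 fold change was 0.09, with an interval of -0.25 to 0.43. There were 0.20, 0.18 and 0.17 counts of *Gsdmd* for each count of *Gsdme* in infarcts. In contralateral cortices there were 0.013, 0.0083 and 0.0043, without overlap (exact permutation *p* = 0.1, the smallest possible). The pair was chosen with its values known, so this p adds nothing to the fold changes of the 2 genes. Of the other gasdermins, *Gsdmc*, *Gsdmc2* and *Gsdmc3* were at 0 in all libraries, and *Gsdma*, *Gsdma2*, *Gsdma3* and *Gsdmc4* had at most 2 counts in any library. *Gsdmd* was therefore the one gasdermin of those listed whose counts were both above this floor and higher in infarcts. *Ninj1*, whose product ruptures the plasma membrane of dying cells, rose from 13, 11.6 and 15.2 CPM to 212, 116 and 120 CPM (log2 fold change 3.49).

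Of the cytokines cut by caspase-1, *Il1b* was called higher and *Il18* was not. *Il1b* had 62, 62 and 45 counts in infarcts (4.94, 4.55 and 3.07 CPM) and 4, 0 and 2 in the contralateral ones (log2 fold change 4.90, standard error 0.60, edgeR adjusted *p* = 6.8e-05, and a log2 fold change of 5.57 without contralateral library 1). *Il18* overlapped between the regions, with 25.2, 23.3 and 22.5 CPM in infarcts and 24.0, 22.3 and 25.3 CPM in the contralateral ones. The log2 fold change was -0.01, with an interval of -0.35 to 0.33, so a change of 2-fold in either direction lay outside the interval. Counts of *Il1b* for each count of *Il18* were 0.196, 0.195 and 0.136 in infarcts and at most 0.0087 in contralateral cortices (exact permutation *p* = 0.1). This pair, too, was chosen with its values known. *Il1a*, which does not need caspase-1 for activity, rose with a log2 fold change of 3.99, and *Il33*, an alarmin of glia and stromal cells, with one of 1.73.

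All 6 inhibitors and decoys were called higher. *Il1rn*, the receptor antagonist of interleukin-1, had 343, 386 and 400 counts in infarcts (27.3, 28.3 and 27.3 CPM) and 0, 0 and 1 in contralateral cortices. The ratio of summed levels was 1254, with a counting interval of 225 to 49566. The fitted log2 fold change was 11.70 without contralateral library 3, which held the 1 count, and 9.17 without contralateral library 1. *Il18bp*, which captures interleukin-18, went from 4.49, 2.86 and 2.40 CPM to 82.6, 45 and 38.2 CPM (log2 fold change 4.06), and was highest in infarct 1. *Cflar*, a restraint on caspase-8, rose by 2.53 on the log2 scale, *Serpinb1a*, an inhibitor of neutrophil proteases, by 2.41, and *Sigirr*, a brake on interleukin-1 receptors, by 1.77. *Il1r2*, the decoy receptor, rose by 1.6 (edgeR adjusted *p* = 0.025), and this call was lost without infarct 1 (1.04), contralateral library 1 (1.66) or contralateral library 3 (1.34).

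**Figure D5:**
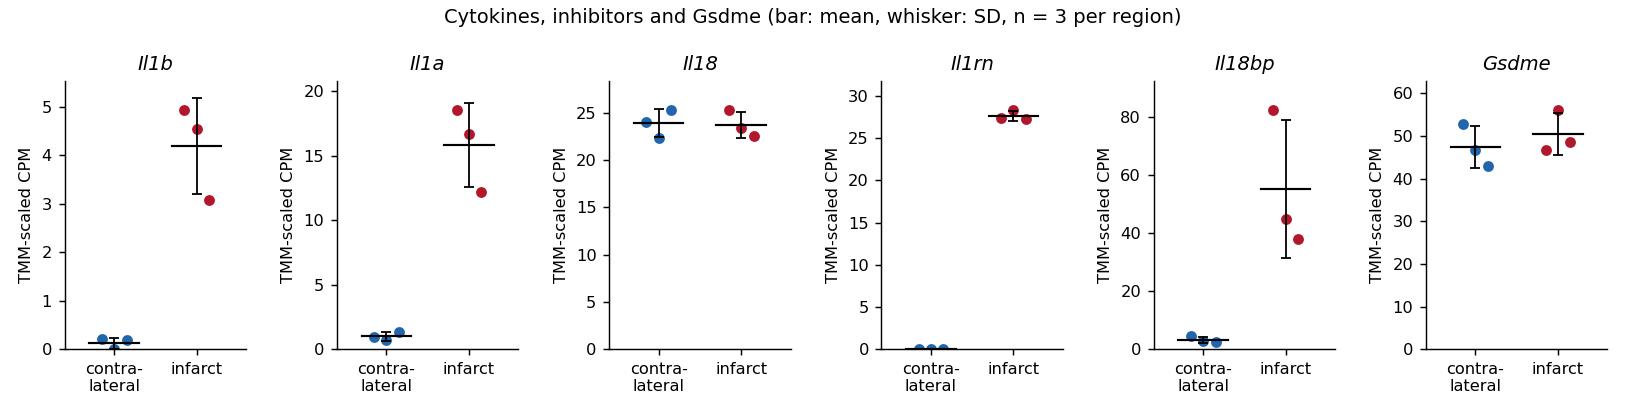
Levels of 3 cytokine genes, 2 inhibitor genes and Gsdme in each library, in TMM-scaled CPM on linear axes from 0. Points are libraries, blue for contralateral cortex and red for infarct, bars are means and whiskers are SDs (n = 3 per region). Il1b, Il1a, Il1rn and Il18bp are higher in all 3 infarcts, whereas the points of Il18 and Gsdme overlap.

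For *Nlrp3*, *Casp1* and *Gsdmd*, the 3 genes with the most similar pattern were sought among 14907 genes with a mean level of at least 1 CPM. Likeness was the root mean square distance between log2 CPM values over the 6 libraries, each gene centered on its own mean. A prior count of 2 was added before the logarithm, which narrows differences in genes with few counts. A small distance therefore need not mean an equal fold change. For *Nlrp3* these were *C1qtnf2* (distance 0.046), *Cotl1* (0.066) and *Cdh1* (0.085). *Casp1* was nearest to *Angpt1* (0.096), *Gpsm3* (0.105) and *Ostf1* (0.130), and *Gsdmd* to *Syngr2* (0.164), *Ddx60* (0.168) and *S100a11* (0.190). All 9 of these genes had log2 fold changes from 3.16 to 4.49. The highest was that of *Gpsm3*, against 3.46 for *Casp1*.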

How the data were processed

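Per the labels, libraries were made with a stranded mRNA kit from 3 infarcts and 3 contralateral cortices. The submitters' processing notes name bcl2fastq 2.19, Trimmomatic 0.32, STAR 2.5.2b, HTSeq and GRCm38. The deposited values are raw whole-number counts per Ensembl gene that the authors made with HTSeq, one file per sample. The HTSeq version, annotation and strand setting are not given in the sources used here. Entries that name no gene (no feature, ambiguous, not unique and the like) were left out. They held 26.6% to 34.3% of tallied reads. Identifiers were matched to GENCODE M21 (45143 of 46078).

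edgeR 4.0.16 in R 4.3.3 was run on all genes, with filterByExpr, TMM scaling, robust quasi-likelihood fits with region as the only term, and Benjamini-Hochberg adjustment. Calls needed an adjusted p under 0.05 and a log2 fold change beyond 1. CPM are scaled by TMM. Ratios of genes with at most 3 counts in every contralateral library carry exact 95% counting intervals. Single values were compared by exact permutation, which cannot go below *p* = 0.1 at 3 against 3. Alternatives were DESeq2 1.42.0, limma voom 3.58.1, RLE factors, library totals, other count filters, adjusted p alone, a replicate block, each library left out, and, for the marker comparison, other marker lists and a prior count of 0.5. The procedure was tested on simulated data.

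The members and lists were chosen with earlier results of these data known. Named genes were the 10 members, the 53 listed pathway genes, the 3 nearest patterns of *Nlrp3*, *Casp1* and *Gsdmd*, and genes sharing sequence with a member. Marker lists also covered B and plasma cells (all 5 higher), astrocytes (2 of 5), endothelium (2 of 4), choroid plexus (1 of 2 tested) and red blood cells (2 of 2 tested). Promoters are from RefSeq GRCm38.p6. Values of a few listed genes are not reported here.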

Additional observations from a re-analysis of the deposited data

How the results depend on the processing

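With edgeR at other scalings and filters, DESeq2, limma voom, the replicate block and each library left out, every inflammasome gene that was tested was called higher and none lower. Where every library had to hold at least 10 counts, that filter left only 4 in the test, and all 4 were called. Library totals moved the median of all tested genes by 0.20 on the log2 scale, against which members ranged from 3.66 to 7.13. Without single libraries, fitted values of *Mefv* ran from 6.44 to 9.44 (without contralateral library 1), of *Nlrc4* from 5.37 to 6.69 (without contralateral library 3) and of *Nlrp1b* from 3.39 (without contralateral library 3) to 4.48 (without contralateral library 1). The median difference from the phagocyte markers, 0.40, was 3.33 against the resting microglia list, -1.23 against the monocyte and macrophage list and 0.24 to 0.62 without single libraries.

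Pathway genes called lower numbered 1 in place of 0 with RLE factors, no filter, DESeq2, limma voom and the replicate block, and 0 to 1 without single libraries (1 without infarct replicate 3), in each case *Nlrp6*. There were 3 with adjusted p alone (*Dpp8*, *Dpp9* and *Brcc3*). *Il18* changed sign to 0.19 with library totals, 0.0077 with no filter and 0.021 with at least 10 counts, and ran from -0.064 to 0.040 without single libraries, with no call. *Casp2* lost its call without infarct replicate 1 and without contralateral replicate 3, in the latter at a log2 fold change of 0.91. Causes were not tested.

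Whether replicate numbers pair the samples is unknown. Correlations of deviations from the region means were -0.19, 0.10 and 0.0011 for same-numbered libraries, and from -0.24 to 0.18 for differently numbered ones. With 3 libraries per region, these values cannot show whether samples were paired. With the replicate block, 3945 genes were called higher and 3222 lower, in place of 3999 and 3256, and all 10 inflammasome genes were called higher. Depth limits the contralateral levels of *Nlrc4*, *Mefv*, *Gsdmd*, *Nlrp1b* and *Casp4*, which rest on 2 to 21 counts in all.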
